A study of Mus musculus with 3 samples.

Results

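The cyclin-dependent kinase inhibitors of the Ink4 and Cip/Kip families were examined in mouse tail-tip fibroblasts (TTFs) undergoing reprogramming. They comprise 4 Ink4 genes (Cdkn2a, Cdkn2b, Cdkn2c and Cdkn2d) and 3 Cip/Kip genes (Cdkn1a, Cdkn1b and Cdkn1c). Members were taken by name, as every array probe whose annotated transcript belonged to 1 of these genes, which gave 10 of 39279 probes and 7 of 20825 genes. Cdkn2a, Cdkn2b and Cdkn1a were each read by 2 probes and the other members by 1 probe. All 10 probes were well above background on all arrays.

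The samples were old p16-/- TTFs from donors aged 22 months, old wild-type (WT) TTFs from donors aged 22 months, and young WT TTFs from donors aged 2 months. Cells of all 3 groups carried 4 introduced reprogramming factors, namely Oct4, Sox2, Klf4 and c-Myc, and the arrays show their RNA on day 8. No untreated cells were analysed here, so each value describes a reprogramming culture and not a resting fibroblast. The design text speaks of 2 experiments on separate donors, of which the data used here hold 1 array for each group. The strain, the number of mice behind an array and the extent of the p16 deletion are not given in the sources used here.

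Ink4 proteins bind Cdk4 and Cdk6 and keep them from joining D-type cyclins. Cip/Kip proteins bind complexes of Cdk2 or Cdk1 with cyclins E, A and B, and also take part in assembling cyclin D complexes. With these kinases inhibited, the retinoblastoma protein stays unphosphorylated and holds E2F transcription factors in check, so that cells do not enter S phase. Cdkn2a is unusual in encoding 2 unrelated proteins, the Cdk4 and Cdk6 inhibitor p16 and the p53 activator Arf, from separate first exons joined to shared later exons. Cdkn2a and Cdkn2b are known as markers of cell senescence and, in cultured fibroblasts, as a barrier to reprogramming.

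Between 57.4% and 61.6% of the 43020 spots of an array were well above background, and no spot was saturated. The 75th percentile of signal, by which each array was scaled, was 2267 for old p16-/-, 2273 for old WT and 2358 for young WT. As each group was a single array, replicate error is unknown and no test was possible. Differences are given as log2 ratios and counted from 2-fold upward, at a log2 ratio of at least 1 or at most -1. Feature Extraction, the scanner software, put the error of a single member signal at about 10%, which makes 0.20 to 0.21 on a log2 ratio. Among 247 probes spotted 10 times, the median SD of the spot-by-spot log2 ratio was 0.0371 for old p16-/- over old WT, 0.0380 for old p16-/- over young WT and 0.0406 for old WT over young WT. Both figures cover measurement on the array and not the spread between cultures or mice.

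The arrays also differed in features outside the inhibitors. Xist, the X-inactivation RNA of female cells, had signals of 1387 in old p16-/-, 1548 in old WT and 13.8 in young WT, the last not above background. The Y-linked Ddx3y and Eif2s3y were not above background on either old array and gave 3949 and 6819 in young WT. Donor sex and age therefore cannot be told apart between the old and young arrays. The 11 fibroblast markers were above background on every array, and their summed level over the 75th percentile was 449 for old p16-/-, 494 for old WT and 497 for young WT. Within them Thy1, a surface antigen of fibroblasts, had 3287 in old p16-/-, 52045 in old WT and 69467 in young WT. Pdgfra, a growth factor receptor of fibroblasts, and Fap, a fibroblast surface protease, lay the other way, with ratios of old p16-/- over old WT of 1.61 and 1.51 against -3.98 for Thy1. These 3 were the fibroblast markers at least 2-fold apart between those arrays, and the list's median was -0.04.

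Of 10 macrophage and leukocyte markers on the array, 4 were above background on old p16-/-, 9 on old WT and 9 on young WT. Their summed levels were 7.77, 10.9 and 15.1 in that order of arrays, and Itgam, at signals of 14934, 19071 and 19992, made up most of each sum. Gene by gene the arrays lay further apart. The median log2 ratio was -1.84 for old p16-/- over old WT (6 of 10 at least 2-fold lower), -4.23 for old p16-/- over young WT (7 of 10 lower) and -2.20 for old WT over young WT (7 of 9 lower), with genes above background on 1 array of a pair entered at their bound. Ptprc, the general leukocyte antigen, lay the other way, above background only on old p16-/-. Its signal there was low, 89.9, where the lowest signal above background was 46.9. Its bound was 1.33 over old WT and 0.76 over young WT. Adgre1, Tyrobp, Lyz2, C1qa, C1qb and C1qc were not above background on the old p16-/- array. Smooth muscle and pericyte markers summed to 52.1 for old p16-/-, 167 for old WT and 140 for young WT, with 4, 6 and 6 of 7 above background. Acta2, at signals of 42072, 165017 and 148230, and Tagln, at 43484, 146254 and 128345, made up most of each sum. For old p16-/- over old WT, Acta2, Tagln and Cnn1 were at least 2-fold lower, while Cspg4 lay the other way at 0.61. Myh11 and Rgs5 gave low signals, 91.8 and 81.7 on old WT. Keratinocyte markers summed to 4.24, 3.91 and 4.47, endothelial markers to 2.88, 2.87 and 2.77, and pluripotency and early epithelial markers to 1.37, 0.994 and 1.04, in the same order. Krt1, Cdh5, Emcn, Pou5f1, Zfp42 and Esrrb, members of these last 3 lists, were not above background on any array. Other members were, with 4, 4 and 3 of 5 keratinocyte markers and 3, 3 and 3 of 5 endothelial markers. For pluripotency and early epithelial markers the counts were 6, 5 and 5 of 9. Krt14 had 3239, 1832 and 3189, and Nanog 196, 217 and 264. Kdr, at 6167, 6041 and 5830, made up most of each endothelial sum. Its second probe gave -0.49 for old p16-/- over old WT, -1.24 for old p16-/- over young WT and -0.75 for old WT over young WT. Tek, at 242, 365 and 577, was at least 2-fold lower in old p16-/- than in young WT (-1.20), while Pecam1 gave 0.23. Sox2 was above background only on old p16-/-, at 72.8. Whether the Pou5f1 and Sox2 probes read the introduced Oct4 and Sox2 is not known. In RNA from whole cultures, fewer cells of a type and less RNA per cell cannot be told apart, and the part of these cell type differences in the inhibitor values was not tested.

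Cdkn2a, the gene of the p16 deletion, was well above background on all arrays. Signals are given as deposited, before scaling, and ratios after it. Its first probe gave a signal of 28065 in old p16-/-, against 65464 in old WT and 62705 in young WT. Its second probe gave 2266 on old p16-/-, 5896 on old WT and 5667 on young WT. By both probes the old p16-/- array stood low, and the old WT and young WT arrays lay close together. The log2 ratio of old p16-/- over old WT was -1.22 by the first probe (2.33-fold lower) and -1.38 by the second (2.60-fold lower). Against young WT, the old p16-/- values were -1.10 and -1.27, while old WT over young WT gave 0.12 and 0.11. These last values were within the scanner's error estimate of 0.20 but above 0.0406, the median spot-by-spot SD for that pair of arrays.

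Both Cdkn2a probes are annotated to the same 1 of the gene's 2 curated RefSeq transcripts. Since p16 and Arf share exons and the probe sequences are not used here, neither probe can be assigned to p16 or to Arf. The Cdkn2a signals thus do not check the p16-/- label.

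Cdkn2b encodes p15, the Ink4 inhibitor known for its induction by transforming growth factor beta, and lies next to Cdkn2a. Its first probe gave 7306 on old p16-/-, 17528 on old WT and 15158 on young WT. Its second probe gave 717 on old p16-/-, 2103 on old WT and 1759 on young WT. As with Cdkn2a, the old p16-/- array was the lowest by both probes, and old WT was the highest. Old p16-/- over old WT came to -1.26 by the first probe (2.39-fold lower) and -1.55 by the second (2.93-fold lower). The second probes of Cdkn2a and Cdkn2b thus lay further from 0 than the first, by 0.16 and 0.29 on the log2 scale. Old p16-/- over young WT was -0.996 by the first Cdkn2b probe, just under the 2-fold limit, and -1.24 by the second. Old WT over young WT was 0.26 and 0.31, beyond the scanner's error estimate for either probe but short of 2-fold.

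**Figure D1:**
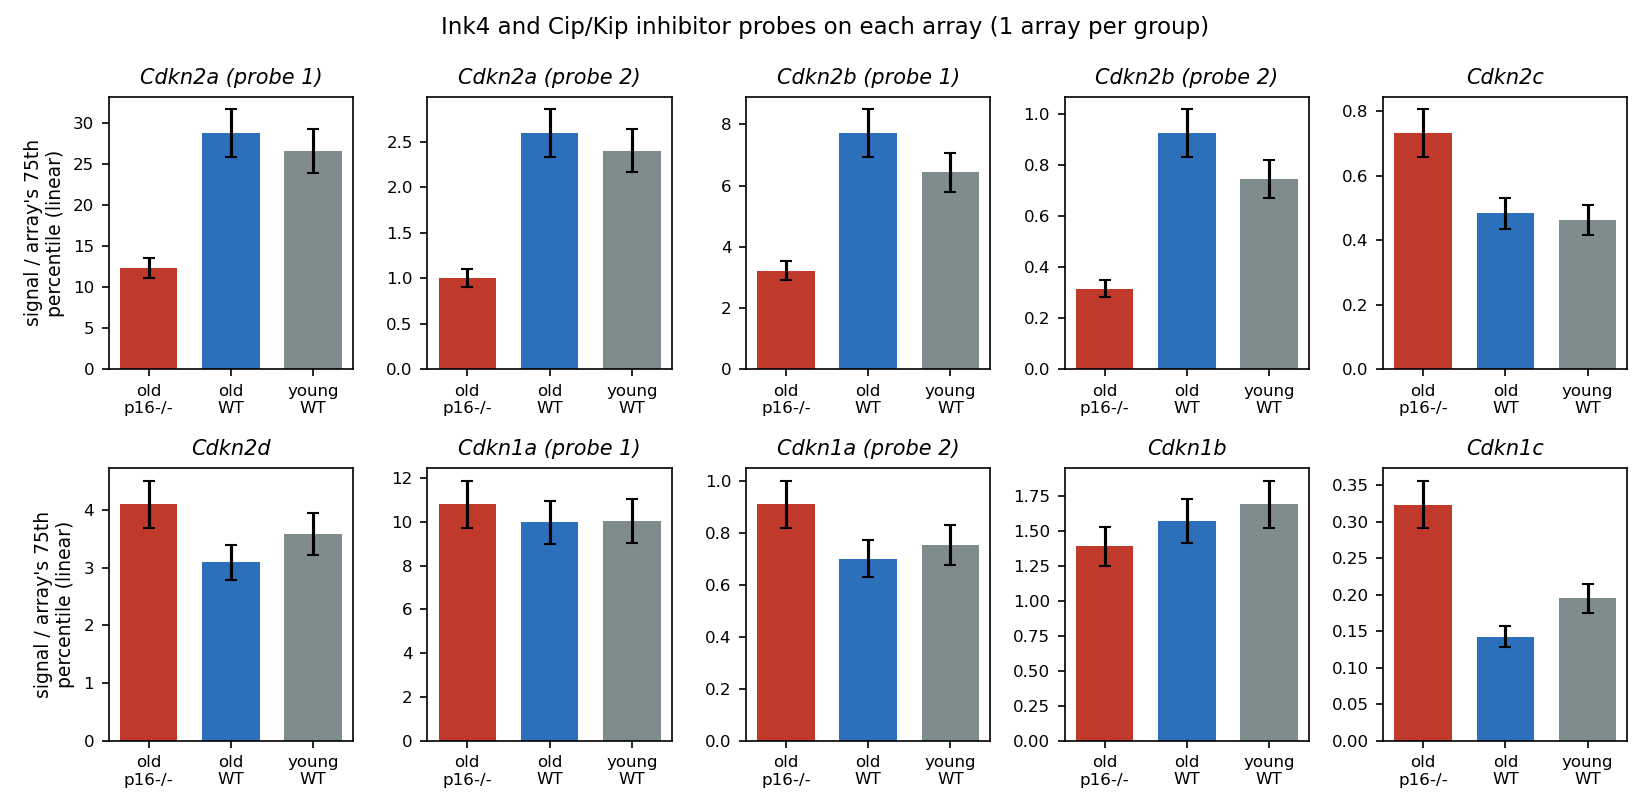
Signal of each inhibitor probe divided by its array's 75th percentile (linear axis from 0, scaled to each panel), for old p16-/-, old WT and young WT with 1 array each. Bars are single-array values and whiskers are Feature Extraction's error estimate of the signal. Both probes of Cdkn2a and of Cdkn2b are lowest in old p16-/-, whereas Cdkn2c and Cdkn1c are highest there.

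The start regions of Cdkn2a and Cdkn2b are shown because these neighbouring members stood apart in the same direction. They come from RefSeq on the GRCm38.p6 build, each running from 250 bases before a transcription start to 50 after it, 5′ to 3′ on the minus strand. Capitals mark matches, on either strand, to the GC box GGGCGG, the CCAAT box, the E2F motif TTTCCCGC or the cAMP response element TGACGTCA. On the minus strand the start at the higher coordinate is the upstream one, and in mouse the upstream first exon of Cdkn2a is that of Arf and the downstream one that of p16.
Cdkn2a upstream start, chr4:89294570-89294869: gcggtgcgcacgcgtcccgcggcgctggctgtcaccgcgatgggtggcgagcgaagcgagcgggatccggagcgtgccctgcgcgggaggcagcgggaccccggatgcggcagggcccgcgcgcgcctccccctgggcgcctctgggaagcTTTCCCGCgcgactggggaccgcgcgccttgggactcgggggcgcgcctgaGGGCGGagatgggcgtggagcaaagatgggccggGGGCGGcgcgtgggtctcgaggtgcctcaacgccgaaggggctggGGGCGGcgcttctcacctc
Cdkn2a downstream start, chr4:89282143-89282442: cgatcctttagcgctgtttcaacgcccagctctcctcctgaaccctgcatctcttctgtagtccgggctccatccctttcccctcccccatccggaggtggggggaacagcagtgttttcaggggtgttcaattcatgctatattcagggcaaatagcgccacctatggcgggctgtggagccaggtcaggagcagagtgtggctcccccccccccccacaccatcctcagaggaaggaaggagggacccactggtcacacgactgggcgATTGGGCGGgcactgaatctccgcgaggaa
Cdkn2b start, chr4:89310983-89311282: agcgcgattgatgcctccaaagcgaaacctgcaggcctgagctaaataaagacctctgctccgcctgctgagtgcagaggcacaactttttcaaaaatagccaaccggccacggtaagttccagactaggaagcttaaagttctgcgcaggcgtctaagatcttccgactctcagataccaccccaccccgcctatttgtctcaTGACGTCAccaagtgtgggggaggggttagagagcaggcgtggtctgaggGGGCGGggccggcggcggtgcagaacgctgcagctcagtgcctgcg

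The upstream Cdkn2a window held 3 GC boxes and 1 E2F motif, and 45 CG dinucleotides, a number reached by 1.93% of the 32851 windows in the table. The downstream Cdkn2a window held 1 GC box that overlaps 1 CCAAT box and 12 CG dinucleotides. The Cdkn2b window held 1 GC box, 1 cAMP response element, and 18 CG dinucleotides. Over all windows the median was 7 CG dinucleotides. GC boxes were found in 35.7% of all windows, CCAAT boxes in 37.4%, the E2F motif in 1.07% and the cAMP response element in 1.79%. The TATA box TATAAA (13.6% of windows) and the E-box CACGTG (7.15%) had no match in these 3 windows. The Cdkn2a starts lie 12427 bases apart, and the Cdkn2b start lies 16413 bases from the upstream Cdkn2a start. These matches describe the letters of the windows and no binding was measured.

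Cdkn2c encodes p18, an Ink4 inhibitor of Cdk4 and Cdk6 on the same chromosome but far from the Cdkn2a locus. Its probe gave 1658 on old p16-/-, 1098 on old WT and 1090 on young WT. The old p16-/- array was high and the WT arrays lay together. Old p16-/- over old WT was 0.60 (1.51-fold higher), old p16-/- over young WT was 0.66 (1.58-fold higher) and old WT over young WT was 0.06. The values against WT exceed the scanner's error and fall short of 2-fold.

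Cdkn2d encodes p19Ink4d, the remaining Ink4 inhibitor, and its probe gave 9307 on old p16-/-, 7041 on old WT and 8464 on young WT. The old WT array was the lowest. Old p16-/- over old WT was 0.41, old p16-/- over young WT was 0.19 and old WT over young WT was -0.21. The last 2 were about the size of the scanner's error estimate. Within the Ink4 family the direction in old p16-/- was thus divided, with Cdkn2a and Cdkn2b lower than old WT and Cdkn2c and Cdkn2d higher.

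Cdkn1a encodes p21, a broad kinase inhibitor and a principal p53 target. Its first probe was spotted 10 times on each array. These spots ranged over 23732 to 25677 on old p16-/- (median 24420), over 21814 to 23299 on old WT (median 22736) and over 22574 to 24665 on young WT (median 23729). The spots of old p16-/- lay above all those of old WT and overlapped those of young WT, and those of old WT and young WT overlapped. Taken spot by spot, the log2 ratio of old p16-/- over old WT lay between 0.08 and 0.15, that of old p16-/- over young WT between 0.07 and 0.13, and that of old WT over young WT between -0.04 and 0.01. Their SDs over the 10 spots were 0.0208, 0.0190 and 0.0177 in that order, so the spots gave close ratios at this signal. That closeness does not cover the scaling between arrays. Under other ways of processing, the Cdkn1a ratio of old p16-/- over old WT ranged from 0.0049 (quantile normalization) to 0.25 (mean of all probes). Spots of 1 array share 1 RNA sample and say nothing of the spread between cultures.

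The second Cdkn1a probe, annotated to another RefSeq transcript of the gene, gave 2065 on old p16-/-, 1595 on old WT and 1778 on young WT. It too was highest on the old p16-/- array. Its log2 ratios were 0.38 for old p16-/- over old WT, 0.27 for old p16-/- over young WT and -0.10 for old WT over young WT. Cdkn1a was therefore within 2-fold in every comparison by both probes, and the probes differed by 0.26 in the first of them.

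RefSeq lists 2 starts for Cdkn1a, 2790 bases apart, and both windows are shown because the probes are annotated to different transcripts; which start serves which transcript was not worked out. Both are on the plus strand of GRCm38.p6. Capitals mark matches to the GC box GGGCGG and to a pair of p53 core sites, each CATG, with 6 bases of any kind between them.
Cdkn1a first start, chr17:29090729-29091028: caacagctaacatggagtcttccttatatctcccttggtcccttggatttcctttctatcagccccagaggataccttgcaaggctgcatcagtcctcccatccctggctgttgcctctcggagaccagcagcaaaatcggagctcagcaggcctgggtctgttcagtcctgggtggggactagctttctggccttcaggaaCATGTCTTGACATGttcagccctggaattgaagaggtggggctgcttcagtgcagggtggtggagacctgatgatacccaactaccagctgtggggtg
Cdkn1a second start, chr17:29093519-29093818: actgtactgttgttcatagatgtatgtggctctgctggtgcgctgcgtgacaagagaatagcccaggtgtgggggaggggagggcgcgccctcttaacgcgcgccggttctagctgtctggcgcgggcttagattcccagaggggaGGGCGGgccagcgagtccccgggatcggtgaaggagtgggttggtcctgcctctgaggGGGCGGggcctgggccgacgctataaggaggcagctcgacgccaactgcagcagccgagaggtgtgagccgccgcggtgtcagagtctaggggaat

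The first Cdkn1a window held the paired p53 sites, a motif found in 0.712% of all windows. It held 2 CG dinucleotides. The second window held 2 GC boxes and 23 CG dinucleotides and no such pair. Windows were on hand for 6 members, 9 in all, and Cdkn1c was not among them.

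Cdkn1b encodes p27, the inhibitor of Cdk2 complexes known for keeping cells quiescent. Its probe gave 3157 on old p16-/-, 3578 on old WT and 3991 on young WT. Old p16-/- was the lowest array and young WT the highest. The log2 ratios were small, -0.18 for old p16-/- over old WT, -0.28 for old p16-/- over young WT and -0.10 for old WT over young WT. Only the middle one exceeded the scanner's error estimate, and each was larger than the median spot-by-spot SD of its comparison.

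Cdkn1c encodes p57, an imprinted inhibitor expressed from the maternal allele. Its signals were 734 on old p16-/-, 324 on old WT and 460 on young WT. Old p16-/- was the highest array and old WT the lowest. Old p16-/- over old WT was 1.19 (2.27-fold higher), old p16-/- over young WT was 0.73 (1.66-fold higher) and old WT over young WT was -0.45 (1.37-fold lower). It was the only member past 2-fold upward in any comparison, and it rests on 1 probe spotted once.

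**Figure D2:**
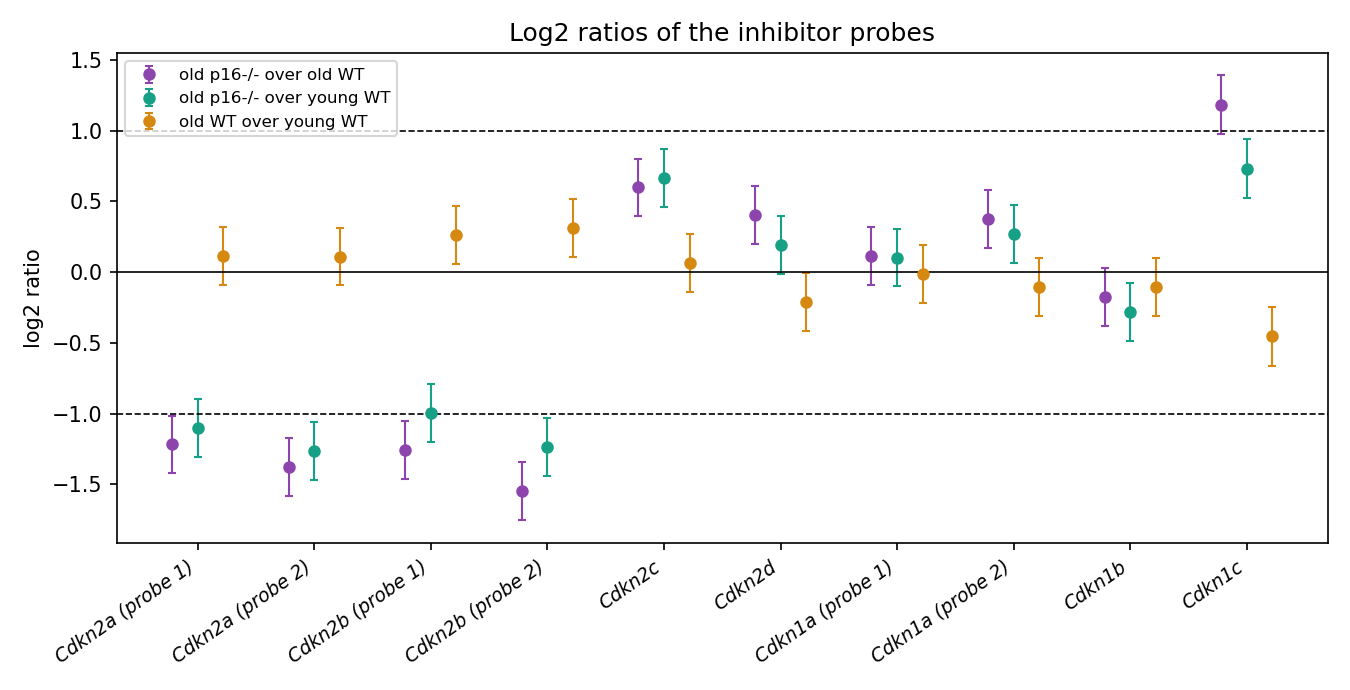
Log2 ratio of each inhibitor probe for old p16-/- over old WT, old p16-/- over young WT and old WT over young WT. Whiskers are the error of the ratio from Feature Extraction's estimate, with 1 array per group, and dashed lines mark 2-fold. In the first comparison both probes of Cdkn2a and Cdkn2b lie below -1, between -1.22 and -1.55, and Cdkn1c lies above 1.

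The first comparison, old p16-/- over old WT, asks how the absence of p16 goes with gene expression in old reprogramming cells. Of the 7 inhibitors, 3 were at least 2-fold apart, with Cdkn2a and Cdkn2b lower and Cdkn1c higher. Over all 14691 genes counted, 12.5% were at least 2-fold apart, 5.92% higher and 6.56% lower. Ratios as far below 0 as those of Cdkn2a and Cdkn2b were held by 4.82% and 4.59% of genes, and ratios as far above 0 as that of Cdkn1c by 4.71%. The median over the 7 inhibitors was 0.11, which is the ratio of Cdkn1a, against 0.03 over all genes. Of the members 4 lay above 0 and 3 below. The Ink4 median was -0.41 and the Cip/Kip median 0.11. Among genes that reached a signal of 1000 on either array, 6.88% were at least 2-fold apart, 2.68% higher and 4.2% lower. There 6 inhibitors remained, 2 of them at least 2-fold lower, and Cdkn1c lay under that signal. In the same comparison the smooth muscle and pericyte markers summed to 52.1 in old p16-/- against 167 in old WT, mostly Acta2 and Tagln. Of these markers 3 were at least 2-fold lower, and Cspg4 lay the other way at 0.61. Of 10 macrophage and leukocyte markers, 6 were at least 2-fold lower and 1, Ptprc, at least 2-fold higher. The Ptprc ratio is a bound from a low signal of 89.9.

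The second comparison, old p16-/- over young WT, sets the old deleted cells against young cells. Cdkn2a was the 1 inhibitor of 7 at least 2-fold apart, with Cdkn2b at -0.996. The share over all 14281 genes was 13.3%, 6.36% higher and 6.95% lower, or 7.6% of genes with a signal of at least 1000, 3.42% higher and 4.18% lower. The members' median was 0.10, again the ratio of Cdkn1a, against 0.03 over all genes. Cdkn2b passed the limit under 4 of 12 other ways of processing, so that the count of inhibitors became 2, and its ratio ranged over -1.12 to -0.95.

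The third comparison, old WT over young WT, addresses age in reprogramming WT cells. None of the 7 inhibitors was at least 2-fold apart. Of all 14546 genes counted, 6.1% were, 2.9% higher and 3.2% lower, or 1.73% with a signal of at least 1000, 1.16% higher and 0.574% lower. The inhibitors ranged from -0.45 for Cdkn1c to 0.26 for Cdkn2b. Their median was -0.01, also the ratio of Cdkn1a, against -0.01 over all genes. Ink4 members had a median of 0.09 and Cip/Kip members -0.10. The sign of the Cdkn1a ratio, -0.01, differed under 3 of 12 other ways of processing. The old WT and young WT arrays also differ in Xist and the Y-linked genes, as given above. By their brightest probes, 7 of 9 macrophage and leukocyte markers were at least 2-fold lower in old WT. The probes of Csf1r and of Itgam disagreed on this, as given above. The 3 comparisons rest on 3 arrays, and each pair of them shares an array.

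**Figure D3:**
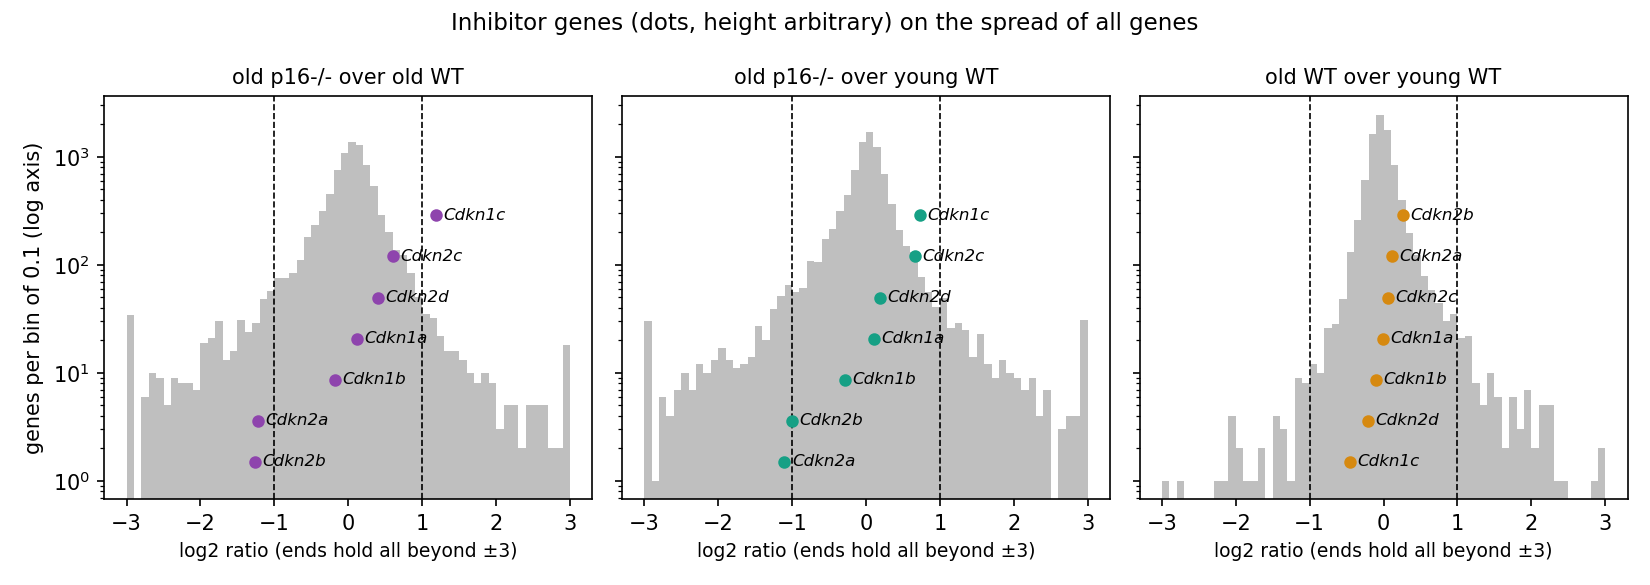
The 7 inhibitor genes (dots, at arbitrary heights) over histograms of log2 ratios in each of the 3 comparisons. The axis of genes per bin is logarithmic. The histograms hold genes above background on all arrays with a brightest signal of 1000 or more, and not all genes counted. Cdkn1c, at 734 on old p16-/-, its brightest array, lies under that signal and is shown as a dot only. Dashed lines mark 2-fold. Cdkn2a, Cdkn2b and Cdkn1c lie outside the lines in old p16-/- over old WT, and no inhibitor does in old WT over young WT.

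The genes beside Cdkn2a and Cdkn2b on chromosome 4 were examined next, taking the 5 named genes with a probe on each side. Mtap, which encodes an enzyme of methionine salvage and adjoins Cdkn2a, had signals of 5490 on old p16-/-, 3347 on old WT and 3157 on young WT. Its log2 ratio of old p16-/- over old WT was 0.72, opposite in direction to that of its neighbours. Tusc1 had 2458 on old p16-/-, 1416 on old WT and 1949 on young WT, and a ratio of 0.80. Zfp352, a zinc finger gene, had 2481, 2362 and 2520 on the same arrays and a ratio of 0.08. Elavl2, which encodes an RNA-binding protein known from neurons, had 1160 in old p16-/-, a signal not above background in old WT and 180 in young WT, which for old p16-/- over old WT gave a bound of at least 5.03 on the log2 scale.

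The remaining neighbours gave low signals. Ifna1 had 103.5 on old p16-/-, 124 on old WT and 136 on young WT, a ratio of -0.25 for old p16-/- over old WT. Dmrta1 was above background only on old p16-/-, at 57.6. Ifna4, Ifne, Wincr1 and Izumo3 were not above background on any array. Of the neighbours measured, only Ifna1 had a ratio below 0, and none was at least 2-fold lower in old p16-/- than in old WT.

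**Figure D4:**
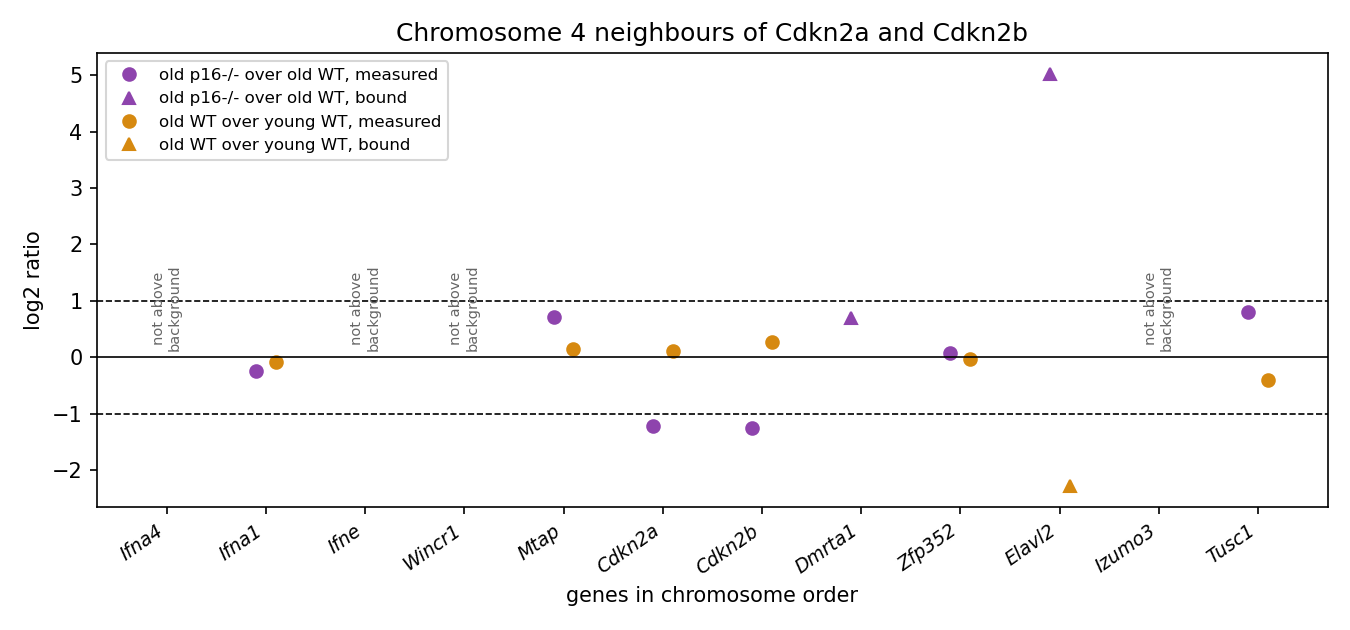
Log2 ratio of old p16-/- over old WT and of old WT over young WT for the chromosome 4 genes around Cdkn2a and Cdkn2b, in chromosome order without distances. Triangles are bounds, from genes above background on 1 of the 2 arrays, and dashed lines mark 2-fold. Cdkn2a and Cdkn2b lie at -1.22 and -1.26 for old p16-/- over old WT, while Mtap lies at 0.72 and Zfp352 at 0.08.

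Genes whose pattern was most like that of a member were sought by the Euclidean distance between log2 ratios of old p16-/- over old WT and old WT over young WT, which share the old WT array. Candidates were above background on all arrays with a brightest signal of 1000 or more. For Cdkn2a the nearest of 8911 other genes were Lrrc4c (distance 0.0368), 2700046G09Rik (0.0474) and Tpm2, a tropomyosin of contractile filaments (0.0559). For Cdkn2b they were Slc7a7, an amino acid transporter (0.0346), Hoxc13, a homeobox gene of hair and nail (0.0404), and Tmem40 (0.0500). Cdkn1c itself lay under that signal, at 734 on its brightest array, and was set against 8912 genes. Its nearest were Gas2l3, which links actin and microtubules (0.0708), Kif5c, a kinesin (0.0713), and Ska1, a kinetochore component (0.0821). Within a distance of 0.1 there were 11 genes for Cdkn2a, 8 for Cdkn2b and 5 for Cdkn1c. Over 2 ratios from 3 arrays, such nearness is a description of these arrays.

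The kinases that Ink4 proteins inhibit were near level between the arrays. Cdk4 had 50347 on old p16-/-, 46755 on old WT and 52067 on young WT, and its log2 ratio of old p16-/- over old WT was 0.11. Cdk6 gave 0.09 in that comparison, Ccnd1 -0.39, Ccnd2 -0.18 and Ccnd3 0.10. The list of 5 cyclin D kinases and cyclins had a median of 0.09 for old p16-/- over old WT, -0.05 for old p16-/- over young WT and -0.13 for old WT over young WT, with none at least 2-fold apart. Ccnd1, the main D-type cyclin of fibroblasts, had the lowest old p16-/- signal relative to WT of these, 92478 on old p16-/-, 121237 on old WT and 141766 on young WT.

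The kinases and cyclins bound by Cip/Kip proteins were higher in old p16-/- than in old WT as a group without any reaching 2-fold. Of 8 listed genes, 6 were counted and all 6 had ratios above 0, with a median of 0.62 against 0.03 over all genes. Cdk1, the mitotic kinase, had 7109 on old p16-/-, 4726 on old WT and 5907 on young WT, a ratio of 0.59. Cdk2, the S-phase kinase, gave 0.33, Ccna2 0.65, Ccnb1 0.64 and Ccnb2 0.98. Ccne1, the G1/S cyclin, gave 0.13 by its brightest probe and -0.85 by its second, so its direction was not settled. For old WT over young WT all 6 brightest probes lay below 0, with a median of -0.28, and for old p16-/- over young WT the median was 0.32. Since old WT stands in 2 of these comparisons, a low old WT signal enters both with opposite sign.

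The 13 genes of the Rb and E2F family, through which the inhibitors act, had a median of 0.32 for old p16-/- over old WT, with 12 above 0 and none at least 2-fold apart. Rb1 had 5484 on old p16-/-, 3772 on old WT and 3987 on young WT, a ratio of 0.54. Rbl1 and Rbl2, the related pocket proteins, gave 0.56 and 0.32, and E2f1 gave 0.21. For old WT over young WT the family's median was -0.10 and 11 of 13 lay below 0. For old p16-/- over young WT the median was 0.17.

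Among 18 E2F target and proliferation genes, the median ratio of old p16-/- over old WT was 0.64 and 17 lay above 0, against a median of 0.03 over all genes. Bub1b, a mitotic checkpoint kinase, was the 1 gene at least 2-fold higher, against 5.92% of all genes. It had 2118 on old p16-/-, 1013 on old WT and 1408 on young WT (ratio 1.07). Mki67, the proliferation marker, had 25203 on old p16-/-, 16087 on old WT and 23594 on young WT, a ratio of 0.65. Pcna, the replication clamp, gave 0.64, and the replication licensing genes Mcm2 and Mcm3 gave 0.90 and 0.02. Tyms, thymidylate synthase, was the exception at -0.75. For old WT over young WT 17 of the 18 lay below 0, with a median of -0.32, and for old p16-/- over young WT the median was 0.27 and none was at least 2-fold apart. Apart from Tyms, which was highest there, these genes thus had their lowest scaled signals on the old WT array, Mcm3 by a ratio of 0.02 only.

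**Figure D5:**
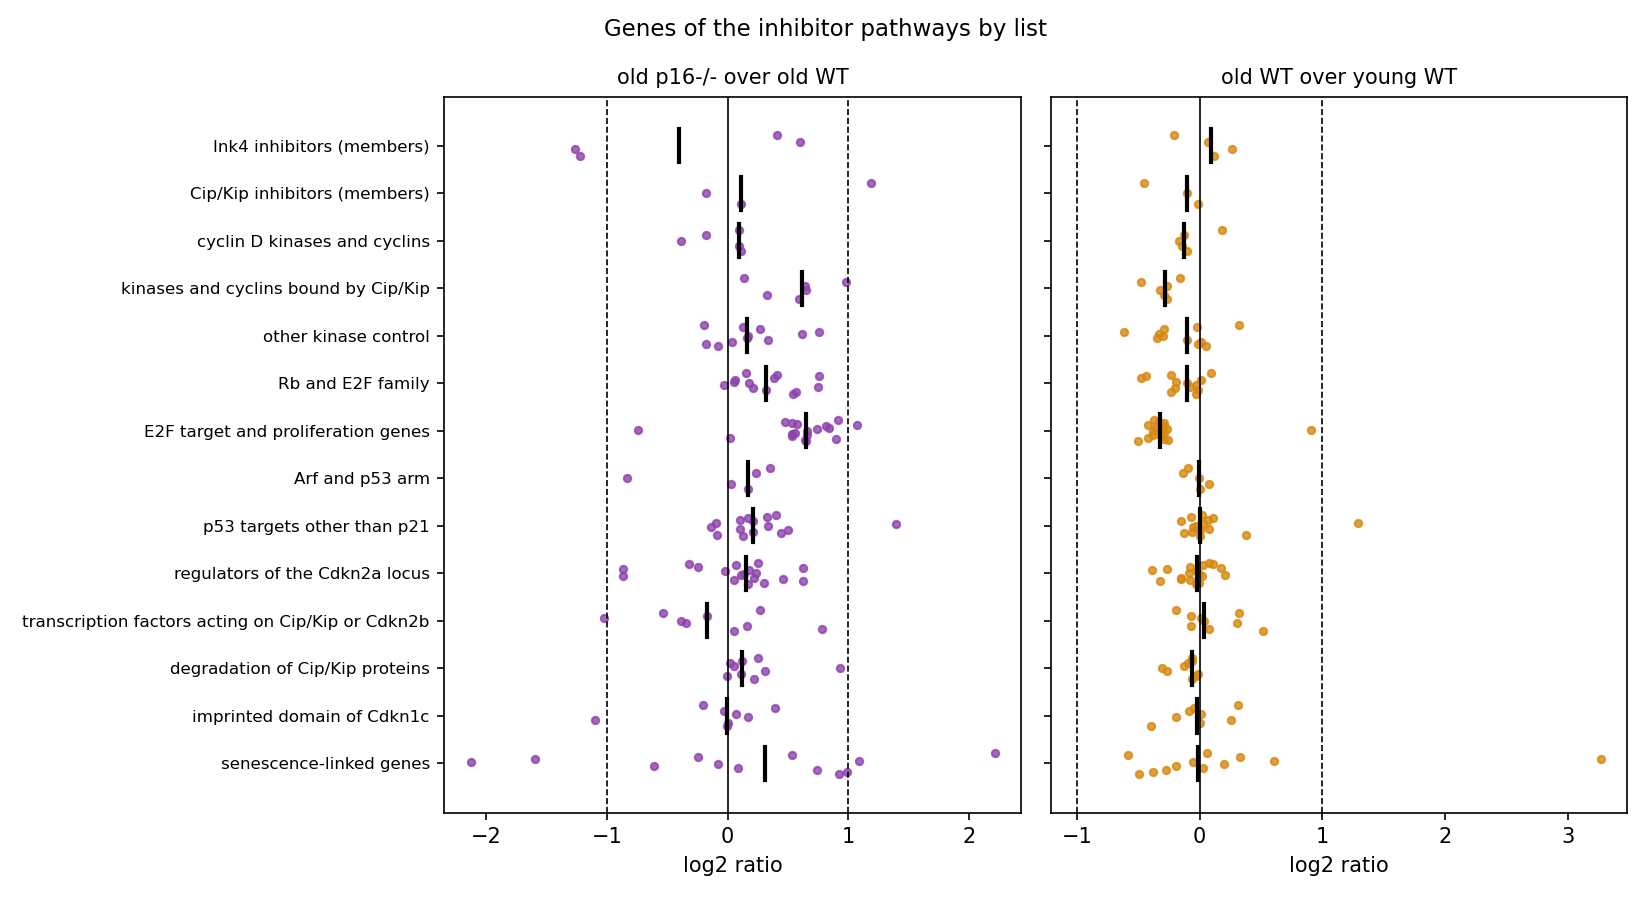
Log2 ratios of the genes in each pathway list, for old p16-/- over old WT and for old WT over young WT, each dot a gene by its brightest probe and each bar the list's median. Dashed lines mark 2-fold. The kinases and cyclins bound by Cip/Kip and the E2F targets have medians of 0.62 and 0.64 in the left panel and of -0.28 and -0.32 in the right.

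The Arf and p53 arm of the locus was near level. Trp53, which encodes p53, had 954 on old p16-/-, 849 on old WT and 880 on young WT, a ratio of 0.17 for old p16-/- over old WT. Mdm2, the ubiquitin ligase of p53 that Arf inhibits, gave 0.02 and Npm1, an Arf-binding nucleolar protein, 0.23. Mdm4 gave -0.83 by its brightest probe and -0.05 by its second, which disagree. The 5 genes had a median of 0.17 for old p16-/- over old WT, 0.10 for old p16-/- over young WT and -0.01 for old WT over young WT.

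Of 15 p53 targets other than p21, 1 was at least 2-fold higher in old p16-/- than in old WT, against 5.92% of all genes. This was Perp, a desmosomal and apoptosis gene, at a ratio of 1.39. Ccng1, Gadd45a, Bbc3 and Bax, well-known targets in growth control and apoptosis, gave 0.13, -0.09, 0.44 and 0.21. The list's median was 0.21, with 12 genes above 0 and 3 below. Perp, at 1.42, and Eda2r, at 1.19, were at least 2-fold higher in old p16-/- than in young WT, as were 6.36% of all genes. The list median was 0.28. The second Eda2r probe gave -0.05 there, so the Eda2r difference rests on 1 of its probes. For old WT over young WT the median was 0.00, and Eda2r, a death receptor family member, stood at 1.29 by its brightest probe and 0.06 by its second.

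Regulators of the Cdkn2a locus were examined because Polycomb proteins such as Bmi1 and Ezh2 repress it. Of 19 listed genes 18 were counted, and none was at least 2-fold apart between old p16-/- and old WT (median 0.15). Bmi1 had 5800 on old p16-/-, 5187 on old WT and 5482 on young WT, a ratio of 0.16. Ezh2 and Ezh1, alternative histone methyltransferases, gave 0.62 and 0.30, and their partner Eed gave 0.06. Ring1, another Polycomb gene, gave -0.86. Id1, an inhibitor of basic helix-loop-helix factors, had 13366 on old p16-/-, 24429.7 on old WT and 30428 on young WT, the 1 regulator at least 2-fold lower in old p16-/- than in young WT (-1.13). The medians were 0.11 for old p16-/- over young WT and -0.02 for old WT over young WT, where none was at least 2-fold apart. Cbx7 was not above background on any array.

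Of 11 transcription factors known to act on Cip/Kip genes or on Cdkn2b, 9 were counted and Myc was the 1 at least 2-fold apart. It had 1172 on old p16-/-, 2387 on old WT and 2456 on young WT, a ratio of -1.02 against old WT and -1.01 against young WT. Whether its probe also reads the introduced c-Myc is not known from the files, and the same holds for Klf4, at -0.35. Foxo1, a factor that acts on Cdkn1b, gave 0.05 for old p16-/- over old WT and 0.51 for old WT over young WT. Sp1, a GC box binding factor, gave 0.16 for old p16-/- over old WT. Foxo4 gave 0.78 there, at low signals of 96.4 on old p16-/- and 56.2 on old WT. The lowest signals above background on those arrays were 46.9 and 35.7, and Foxo4 was not above background on young WT. The list's medians were -0.17 for old p16-/- over old WT, -0.04 for old p16-/- over young WT and 0.03 for old WT over young WT.

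Genes that act in the degradation of Cip/Kip proteins showed no 2-fold difference in any comparison. The 9 counted had medians of 0.12 for old p16-/- over old WT, 0.06 for old p16-/- over young WT and -0.07 for old WT over young WT. Skp1, Cul1 and Rbx1, core parts of the SCF ubiquitin ligase, gave 0.21, -0.01 and 0.11, and Cks1b, its cofactor for p27, gave 0.31 for old p16-/- over old WT. Dtl, the adaptor of the ligase that targets p21 in S phase, stood furthest out at 0.93. Protein levels were not measured.

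Cdkn1c lies in an imprinted cluster on chromosome 7, and of the other genes listed from that cluster and its neighbour none was at least 2-fold higher in old p16-/- than in old WT. Kcnq1ot1, the antisense RNA that silences Cdkn1c on the paternal allele, had 416 on old p16-/-, 418 on old WT and 571 on young WT. Its ratio was -0.00 for old p16-/- over old WT and -0.40 for old WT over young WT. Slc22a18, a transporter gene next to Cdkn1c, had 985 on old p16-/-, 2111 on old WT and 1840 on young WT, a ratio of -1.10 against old WT. Nap1l4 gave 0.17, and Phlda2 was above background only on old WT, at 42.1. The 8 genes counted had a median of -0.00 for old p16-/- over old WT and of -0.03 for old WT over young WT, and 7 had a median of -0.03 for old p16-/- over young WT. Igf2 was not above background on any array.

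Senescence-linked genes, among which Cdkn2a is usually counted, went in different directions. Of 12 counted, 2 were at least 2-fold higher in old p16-/- than in old WT and 2 at least 2-fold lower. Over all genes the shares were 5.92% and 6.56%. Mmp3, a secreted matrix protease, had 27857.5 on old p16-/-, 6033 on old WT and 6022 on young WT (ratio 2.21 against old WT). Igfbp3 and Igfbp5, secreted binding proteins of insulin-like growth factors, gave 1.09 and -1.59.

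Lmnb1, a nuclear lamin known to decline in senescent cells, had 5265 on old p16-/-, 2790 on old WT and 4085 on young WT, a ratio of 0.92 against old WT. Hmgb1 and Hmgb2, chromatin proteins, gave 0.99 and 0.74, and Hmga1 gave 0.08. In old WT over young WT, Igfbp5 was the 1 gene of the list at least 2-fold apart, at 3.27, and Lmnb1 stood at -0.50. The list's medians were 0.31 for old p16-/- over old WT, 0.27 for old p16-/- over young WT, where 3 were at least 2-fold higher, and -0.02 for old WT over young WT.

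The remaining control genes of the kinases, 11 in number, had a median of 0.16 for old p16-/- over old WT, 0.05 for old p16-/- over young WT and -0.11 for old WT over young WT. None was at least 2-fold apart in any comparison. Cdk7, Ccnh and Mnat1, which together form the activating kinase, gave -0.08, -0.18 and 0.03 for old p16-/- over old WT, and Wee1, which inhibits Cdk1, gave 0.33.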

How the data were processed

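Total RNA of 3 samples was labelled with Cy3 and hybridised to 1-colour Agilent arrays, per the labels. The deposited scanner files hold spot intensities on a linear scale. Per the file headers, the authors' software (Feature Extraction 11.5.1.1) subtracted background, detrended the processed signal and did not normalize between arrays. The 3 arrays lay on 1 slide read in 1 scan. The deposited value table holds the same intensities, unscaled, equal within a tolerance of 0.0001 for 39030 of 39030 probes, with medians of 132 (old p16-/-), 135 (old WT) and 137 (young WT).

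Control spots (1377) and spots marked as outliers (267, 246 and 246 on the same arrays) were left out, and probes with no spot left on an array were dropped. For each probe the mean log2 signal of its spots was taken, less the 75th percentile of its array. Transcript annotations of the probes were matched to RefSeq genes (GRCm38.p6), which named 27413 probes and left 11866 unnamed. The array was designed on mm9, so probes have no coordinates here. A gene was read by its brightest probe and counted if above background on at least 1 array of a pair, by any probe. Where only 1 was, the ratio is a bound, set by the lowest signal above background. With 1 array per group no test was run.

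The members and lists were chosen with earlier results of these data known. The text names all members with every probe, list members at least 2-fold apart (up to 4), up to 4 others in list order, 5 neighbours on each side and the 3 nearest genes. Tyms, Ccnb2, Ccne1, Ring1, Dtl, Igf2, Cbx7 and the sex-linked genes were singled out after their values were seen. Of 195 list entries 192 were matched, and Cd68, Skp2 and H19 were not. One member of the senescence list is not reported here. Alternatives were normexp (offset 50), quantile and cyclic loess normalization (limma 3.58.1, R 4.3.3), median or no scaling, the value table, the mean of all probes, stricter or no background filter and outlier spots kept. A signal minimum of 1000 was added after seeing the data. Calculations used Python 3.11.15, pandas 2.3.3 and numpy 2.4.6, and the comparison was tested on simulated data.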

Additional observations from a re-analysis of the deposited data

How the results depend on the processing

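The number of genes at least 2-fold apart moved most with the treatment of dim probes. For old p16-/- over old WT, 1834 genes became 1218 with both arrays above background, 2914 with no filter, 1221 with normexp and 608 at a signal of at least 1000. For old p16-/- over young WT, 1901 became 1211, 2949 and 674 with both arrays, no filter and the signal minimum. For old WT over young WT, 888 became 459 with both arrays, 1692 with no filter, 524 with normexp, 525 with normexp and quantile normalization, and 151 at the signal minimum, where 101 were higher and 50 lower, against 422 and 466. Without a filter the median of all genes was 0.12 for old p16-/- over old WT.

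Over the alternatives, old p16-/- over old WT ranged from -1.33 to -1.18 for Cdkn2a, from -1.40 to -1.19 for Cdkn2b and from 1.03 to 1.22 for Cdkn1c, all past 2-fold, except that Cdkn1c is not counted at the signal minimum. For old p16-/- over young WT the count of inhibitors became 2 under cyclic loess, quantile normalization, no scaling and the mean of all probes, with Cdkn2b added. The members' median, for old p16-/- over old WT, was 0.022 under cyclic loess, 0.25 with the mean of all probes, 0.15 under median scaling, 0.014 with normexp and quantile normalization, 0.0049 under quantile normalization and -0.031 at the signal minimum. For old p16-/- over young WT it was 0.057 (cyclic loess), 0.19 (mean of all probes), 0.0463 (no scaling), 0.040 (normexp and quantile), 0.0465 (quantile) and -0.089 (signal minimum). For old WT over young WT it was 0.035 under cyclic loess, 0.042 under quantile normalization, -0.058 with the mean of all probes and -0.065 with no scaling. Except at the signal minimum, each of these medians was the ratio of Cdkn1a, the middle member. The cause of these shifts was not tested.

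The files have no mean signal, so normexp was run on median signals. No paired analysis was possible because each group has 1 array, and for the same reason leaving out a replicate was not run. Cdkn1c on all arrays, and the second Cdkn2b probe in old p16-/-, lay under a signal of 1000 and were spotted once, so their spot error was not measured.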
